A study of Homo sapiens with 4 samples.

Results

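The SLC25 genes, which encode the solute carriers of the mitochondrial inner membrane, were examined in NUDUL1, an established human line of diffuse large B cell lymphoma of the germinal center type. Members were the genes named SLC25A followed by a number that lay above 0 in at least 2 of 4 RNA sequencing libraries, and 40 of the 43 such symbols met this rule, among 16945 genes that met it out of 25066 listed. The cells were a single-cell clone with doxycycline-inducible Cas9 that had been transduced with Tbxa2r, a receptor that couples to the G protein subunit Gα13. They expressed either a control sgRNA (2 libraries) or an sgRNA against GNA13, the gene for Gα13 (2 libraries), with 1 sgRNA per genotype. Every library came from cells given 10 nM U46619, a stable mimic of the Tbxa2r ligand thromboxane A2, for 24 h, so that the comparison was between genotypes under the ligand and held no untreated cells. No source stated that the replicates were separate cultures, and p values therefore measured only the spread between these samples.

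The libraries held 29209544 and 31537955 mapped reads for control cells and 30141459 and 29685942 for cells labelled GNA13-deficient. On the log2 scale of the deposited normalised reads, 3 reads lay between 1.56 and 1.69, depending on the library. GNA13 itself measured 12.46 and 12.45 against 13.10 and 13.11, a difference of 0.65 (SE 0.05, adjusted p = 0.00214). Its RNA was thus higher, not lower, under the GNA13 sgRNA, and the second group is called the libraries labelled GNA13-deficient throughout. The 6 B cell markers ranged from 10.21 to 14.33 and the 3 T cell markers were listed at 0 in all libraries. The 3 myeloid markers summed to 99 and 101 reads in control libraries against 24 and 21 in the other group, and the 3 epithelial markers to 37 and 46 against 88 and 97, with 2 of those 3 at 0 in all libraries. The 6 germinal center markers summed to 19607 and 19425 reads against 17325 and 16054, and among them the transcription factor BCL6 measured 10.75 and 10.895 against 8.232 and 8.441 on the log2 scale and LMO2 8.107 and 8.048 against 4.125 and 4.629. The part of these cells or transcripts in the results was not tested.

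SLC25 proteins sit in the inner mitochondrial membrane, which is closed to most metabolites, and each exchanges or carries a small set of solutes between the matrix and the cytosol. They are encoded in the nucleus, made in the cytosol and inserted by the small TIM chaperones and the TIM22 complex. The carriers let ATP leave and ADP and phosphate enter during respiration, export citrate for lipid synthesis, move malate, aspartate and glutamate in the malate-aspartate shuttle, and supply the matrix with iron, glutathione, folate and cofactors. Germinal center B cells and the lymphomas derived from them divide quickly and use mitochondria both for ATP and for biosynthetic precursors.

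Promoter sequences are shown for 5 members whose groups differed in level or whose start lies beside an E-box, to show the sequence context of genes on either side of the comparison. RefSeq promoter entries, each running from 250 bases before to 50 bases after a start, were matched for 33 of the 40 members (RefSeq on GRCh38.p14, placed on GRCh37, the hg19 build of the data, by exact match). The stretches run from 120 bases before the start to 10 bases after it. Capitals mark the E-box CACGTG and the CCAAT box, written CCAAT or ATTGG according to the strand, and no marked word overlaps another. The first 2 genes rose in the libraries labelled GNA13-deficient, the next 2 fell, and the last did not pass the test. SLC25A45 has 2 annotated starts and SLC25A22 has 4, of which 1 each is shown. In both genes the start shown was one whose entry held a marked word. The other SLC25A45 entry held none. In SLC25A22 only the entry shown held an E-box, another held a CCAAT box and the remaining entries held no marked word.
SLC25A4, chr4:186064300-186064429, plus strand: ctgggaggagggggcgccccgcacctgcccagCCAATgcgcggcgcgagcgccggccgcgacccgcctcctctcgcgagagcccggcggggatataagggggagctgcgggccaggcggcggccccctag
SLC25A28, chr10:101380187-101380316, minus strand: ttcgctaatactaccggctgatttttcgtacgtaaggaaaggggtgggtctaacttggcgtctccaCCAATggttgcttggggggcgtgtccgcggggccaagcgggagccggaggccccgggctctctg
SLC25A45, chr11:65149433-65149562, minus strand: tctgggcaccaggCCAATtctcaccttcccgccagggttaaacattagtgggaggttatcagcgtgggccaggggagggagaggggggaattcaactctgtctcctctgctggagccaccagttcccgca
SLC25A22, chr11:795423-795552, minus strand: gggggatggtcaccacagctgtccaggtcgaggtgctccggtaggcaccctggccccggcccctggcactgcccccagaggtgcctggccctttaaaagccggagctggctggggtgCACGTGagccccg
SLC25A33, chr1:9599404-9599533, plus strand: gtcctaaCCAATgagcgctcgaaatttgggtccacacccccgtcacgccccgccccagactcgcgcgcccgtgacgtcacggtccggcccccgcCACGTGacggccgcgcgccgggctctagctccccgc

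Among the entries, an E-box was held by 7 of 33 members (21.2%) and by 8.77% of 27305 genes with an entry. The 7 were SLC25A13, SLC25A22, SLC25A26, SLC25A33, SLC25A36, SLC25A38 and SLC25A46. A gene was counted when any of its entries held the word. Of the members that rose, 0 of the 8 with an entry held it, and of those that fell, 1 of 4 did. That 1 was SLC25A22, through a single entry among its several starts. A CCAAT box stood in 19 of 33 members (57.6%) and in 39.72% of all genes, with 5 of the 8 that rose and 2 of the 4 that fell. The E2F words TTTCCCGC and TTTGGCGC, searched on both strands, were found in 2 of 33 members (6.1%), SLC25A11 and SLC25A17, and in 2.75% of all genes. TATAAA on either strand was in 3 of 33 members (9.1%) and in 13.99% of all genes. These are matches of letters in a fixed window and were not tested.

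The carriers moved in both directions. Of the 40 members, 10 rose in the libraries labelled GNA13-deficient (25% of members, beside 13.1% of all genes tested) and 6 fell (15%, beside 16.6%), by limma with Benjamini-Hochberg adjustment over all genes and a threshold of 0.05. Of those that rose, 9 are named here: SLC25A4, SLC25A16, SLC25A1, SLC25A14, SLC25A10, SLC25A28, SLC25A24, SLC25A44 and SLC25A39. Those that fell were SLC25A45, SLC25A22, SLC25A15, SLC25A30, SLC25A32 and SLC25A43. Their adjusted p values ran from 0.00343 to 0.0478. The other 24 lay between -0.46 and 0.41 and the lowest adjusted p among them was 0.0556. In bulk RNA, fewer cells expressing a gene and less RNA of it per cell cannot be told apart.

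Both libraries labelled GNA13-deficient were above both control libraries for 19 members, beside 31.3% of all genes, and below both for 11, beside 34.0%. The remaining 10 overlapped. The median difference over the members was 0.06, and -0.03 over all genes tested; the median absolute difference was 0.30 against 0.35. Most members are well expressed, and among the 8473 genes with a mean at or above the median, 21.3% rose and 17.7% fell. Of the 33 members in that upper part, 9 rose (27.3%) and 5 fell (15.2%), with a median difference of 0.13 against 0.03. The share of members that fell was thus close to the background, while the share that rose stood above it by a margin that narrowed among well-expressed genes. No test was made of the family as a set.

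All 16 genes kept their direction in each alternative that tested them, but the number past the threshold rested on all 4 libraries: when any 1 library was left out, limma called 0 of the 16945 genes, with 14 to 16 members and 5257 to 5600 genes at an unadjusted p under 0.05. When each library was centred on its median, 18 members rose and 3 fell, so that 85.71% of called members were higher rather than 62.5%, and over all genes 69.14% rather than 44.03%. That scaling moved the median of all genes from -0.03 to 0.18 and raised every member's difference by the same amount. Without the filter on low genes, or without the variance trend, 4 members rose and 3 fell. The rises of SLC25A10, SLC25A16, SLC25A24, SLC25A39 and SLC25A44 and the falls of SLC25A15 and SLC25A32 missed the threshold in both of these settings.

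**Figure D1:**
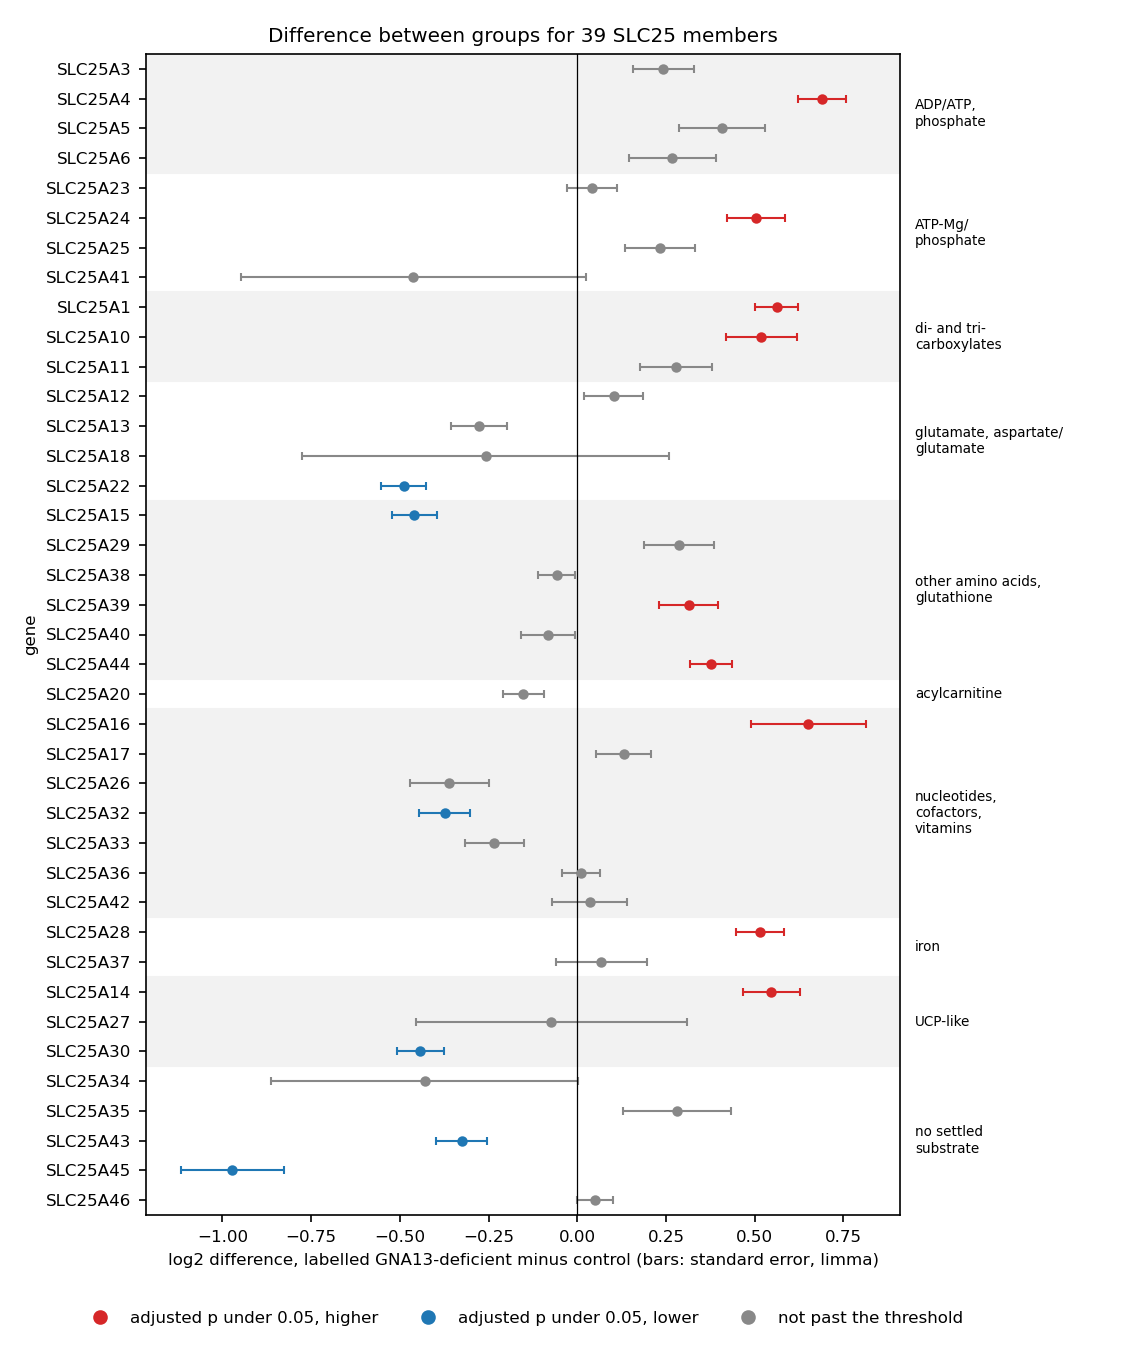
Log2 difference between libraries labelled GNA13-deficient and control libraries (x axis) for 39 SLC25 members (y axis), grouped by the solute carried; points are means of 2 libraries minus means of 2, bars are limma standard errors, red marks 9 that rose and blue the 6 that fell. The ADP/ATP, phosphate and carboxylate carriers all lie to the right of 0, and SLC25A45 lies farthest to the left at -0.97.

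The ADP/ATP and phosphate carriers handle the substrates of ATP synthase. In each pair of values that follows, the 2 control libraries come first and the 2 libraries labelled GNA13-deficient second, on the log2 scale. SLC25A4, the ADP/ATP translocase best known from heart and skeletal muscle, measured 10.69 and 10.76 against 11.35 and 11.47, and rose by 0.69 (SE 0.07, adjusted p = 0.00343). The group ranges were far apart, and this was the largest rise among the members. SLC25A5, the translocase typical of dividing cells, measured 14.09 and 14.33 against 14.51 and 14.73, with a difference of 0.41 (SE 0.12, adjusted p = 0.0651). SLC25A6, a further translocase with wide expression, measured 13.36 and 13.64 against 13.67 and 13.86, with a difference of 0.27 (SE 0.12, adjusted p = 0.174). SLC25A3, which imports phosphate, measured 14.17 and 14.31 against 14.42 and 14.54, with a difference of 0.24 (SE 0.09, adjusted p = 0.0967). All 4 genes had both libraries labelled GNA13-deficient above both controls, as had 31.3% of all genes. Of the 4, 1 passed the test, beside 13.1% of all genes and 21.3% of well-expressed genes that rose. Under quantile normalization the differences were 0.67 for SLC25A4, 0.205 for SLC25A5, 0.12 for SLC25A6 and 0.014 for SLC25A3. SLC25A4 alone passed there, without the filter on low genes and without the variance trend. Under median centring SLC25A5 (0.61, adjusted p = 0.0303) and SLC25A3 (0.45, adjusted p = 0.0307) passed as well. Both also passed in limma with a filter at the median (0.00812 and 0.0362) and with voom weights (0.0255 and 0.0474). SLC25A5 passed narrowly with pseudocounts of 1 and 10 (0.0457 and 0.0452) and with the robust prior (0.0455), where SLC25A3 did not. SLC25A31, a translocase of the germ line, was listed at 0 in every library.

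Within the 3 translocases, SLC25A4 made up 5.56% and 4.92% of reads in control libraries and 6.68% and 6.32% in the other group. SLC25A6 went the other way, from 35.43% and 36.4% to 33.49% and 33.17%, and SLC25A5 held 59.01% and 58.68% against 59.83% and 60.5%. These shares do not depend on how the libraries were scaled. The SLC25A4 share had a mean of 5.24% against 6.5%, with an exact two-sided permutation p of 0.333, the smallest that 2 libraries against 2 can give. SLC25A5 has 9 annotated pseudogenes and SLC25A6 has 6, and SLC25A6 lies in the pseudoautosomal region, and the counts of these genes are uncertain for that reason. SLC25A4 (chr4:186064420-186071536, plus strand, 4 exons in its canonical transcript) has no annotated pseudogene.

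The ATP-Mg/phosphate carriers set the size of the adenine nucleotide pool in the matrix and respond to cytosolic calcium. SLC25A24 measured 10.85 and 10.64 against 11.24 and 11.26 and rose by 0.50 (SE 0.08, adjusted p = 0.0123). SLC25A25 measured 9.20 and 9.04 against 9.43 and 9.28, also without overlap, with a difference of 0.23 (SE 0.10, adjusted p = 0.144). SLC25A23 lay at 0.04 (adjusted p = 0.707) with overlapping groups. SLC25A41, a short form of this carrier that lacks calcium-binding domains, rested on 12 to 31 reads per library and lay at -0.46 (adjusted p = 0.523). The log2 ratio of SLC25A24 to SLC25A23 within a library was -0.21 and -0.48 against 0.18 and 0.05, a difference of 0.46 (SE 0.15), with the exact two-sided permutation p at its floor of 0.333, as for every such ratio below.

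The carboxylate carriers connect the citric acid cycle with the cytosol. SLC25A1, the citrate carrier that supplies cytosolic acetyl-CoA for fatty acid and sterol synthesis, measured 10.06 and 10.13 against 10.64 and 10.67 and rose by 0.56 (SE 0.06, adjusted p = 0.004). SLC25A10, which exchanges malate or succinate for phosphate, measured 8.80 and 8.89 against 9.27 and 9.46 and rose by 0.52 (SE 0.10, adjusted p = 0.0197). In both genes the replicates of a group lay closer to each other than to the other group. SLC25A11, the malate/2-oxoglutarate carrier of the malate-aspartate shuttle, measured 11.18 and 11.32 against 11.41 and 11.65, with a difference of 0.28 (SE 0.10, adjusted p = 0.104). SLC25A21, which carries 2-oxoadipate, was listed at 0 in all libraries. Of the 3 genes measured, 2 passed the test, beside 13.1% of all genes and 21.3% of well-expressed genes that rose. All 3 lay above the controls without overlap, as did 31.3% of all genes. SLC25A1 has 5 annotated pseudogenes. SLC25A10 overlaps exons of an annotated gene without a symbol on the same strand, and SLC25A11 overlaps exons of RNF167 on the opposite strand.

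The glutamate and aspartate/glutamate carriers did not share that direction. SLC25A22, a glutamate/proton symporter, measured 10.29 and 10.38 against 9.85 and 9.85 and fell, with a difference of -0.49 (SE 0.06, adjusted p = 0.00668). The 2 libraries labelled GNA13-deficient were nearly equal and both well below the controls. SLC25A13 (citrin), an aspartate/glutamate exchanger of the malate-aspartate shuttle, measured 10.94 and 11.08 against 10.67 and 10.79, with a difference of -0.28 (SE 0.08, adjusted p = 0.0556), just outside the threshold. Its call depended on the setting. It passed under quantile normalization (-0.30, adjusted p = 0.0326) and with voom weights (adjusted p = 0.0377). It also passed with a filter at the median (adjusted p = 0.0183) and, narrowly, with pseudocounts of 1 and 10 (0.0481 and 0.0445). With the robust prior it missed narrowly (adjusted p = 0.0518). It missed under median centring (-0.07, adjusted p = 0.612), without the filter on low genes (adjusted p = 0.21) and without the variance trend (adjusted p = 0.173). SLC25A12 (aralar), the other aspartate/glutamate exchanger, measured 10.00 and 9.93 against 9.98 and 10.16, with a difference of 0.10 (SE 0.08, adjusted p = 0.412). The groups of SLC25A12 overlapped and those of SLC25A13 did not. Their log2 ratio was -0.94 and -1.14 against -0.68 and -0.63, a difference of 0.38 (SE 0.11). SLC25A18, a second glutamate carrier, was near the floor at 3.73 and 2.98 against 2.62 and 3.56, on 6 to 13 reads, with a difference of -0.26 (SE 0.52, adjusted p = 0.753).

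**Figure D2:**
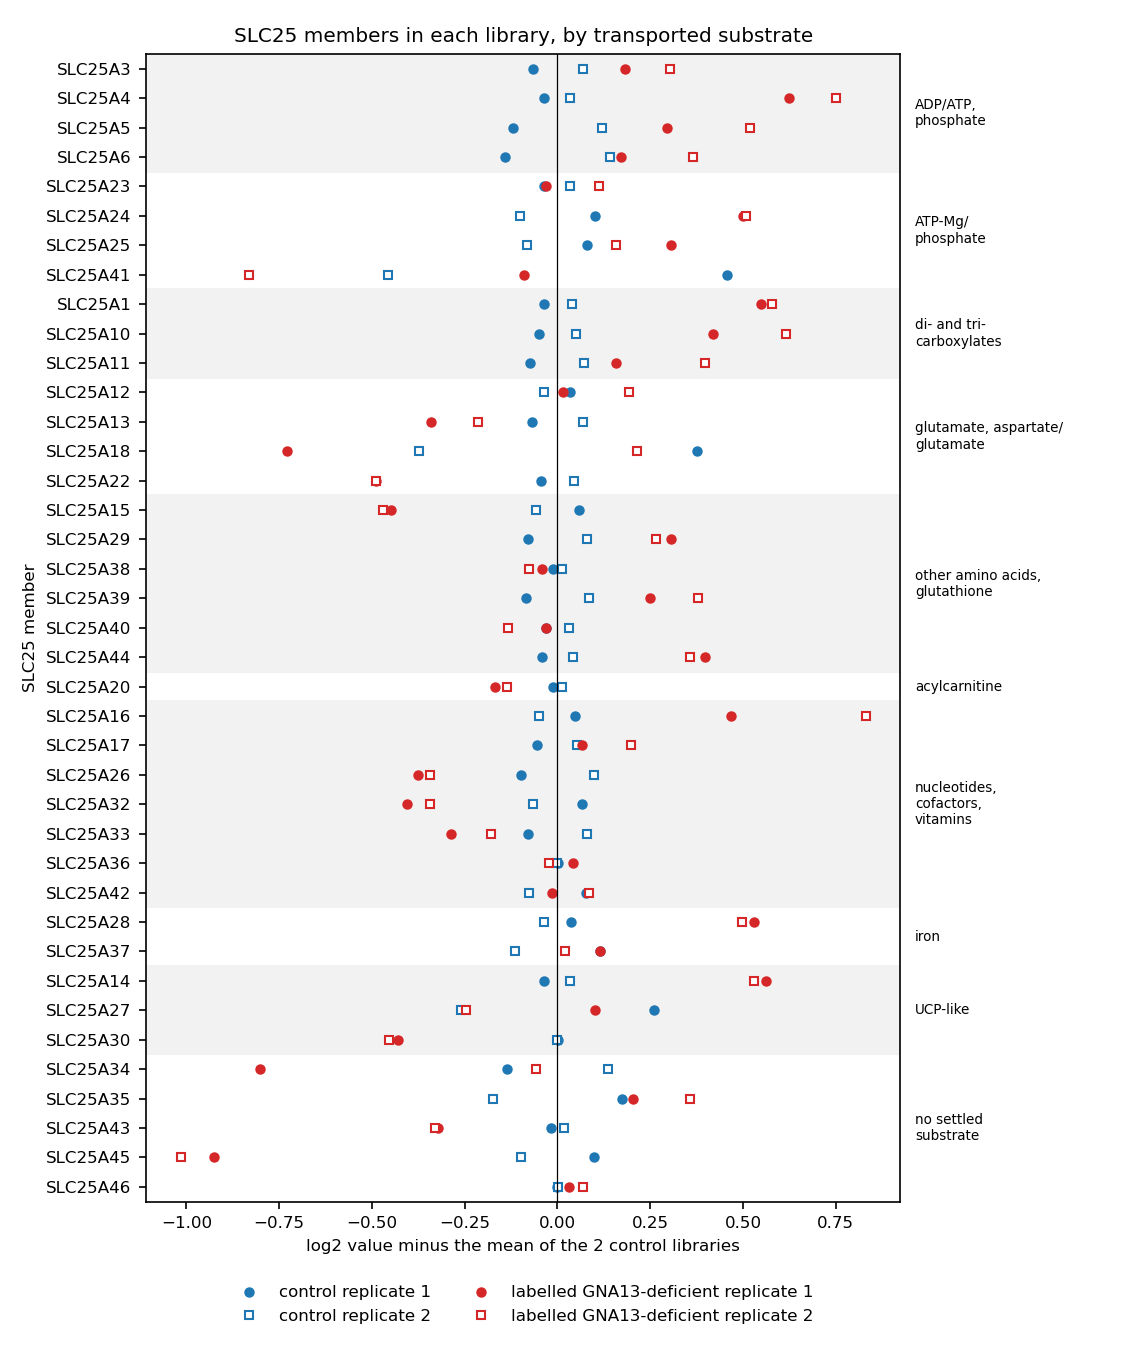
Log2 value of each of 39 members in each of the 4 libraries after subtraction of the mean of the 2 control libraries (x axis), by solute group (y axis); circles are replicate 1 and squares replicate 2, blue for control and red for libraries labelled GNA13-deficient. Replicates of SLC25A22, SLC25A15, SLC25A30 and SLC25A43 lie close together and left of the controls, while SLC25A18, SLC25A27, SLC25A34 and SLC25A41, with few reads, are widely scattered.

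Among the other amino acid and glutathione carriers, 2 of 6 rose and 1 fell, beside 13.1% and 16.6% of all genes. For well-expressed genes these shares were 21.3% and 17.7%. SLC25A15, the ornithine carrier that feeds polyamine and urea cycle metabolism, measured 10.95 and 10.84 against 10.45 and 10.42 and fell, with a difference of -0.46 (SE 0.06, adjusted p = 0.0079). It has 5 annotated pseudogenes and an exon overlap with MIR621 on the same strand. SLC25A44, which imports branched-chain amino acids, measured 10.57 and 10.66 against 11.01 and 10.97 and rose by 0.38 (SE 0.06, adjusted p = 0.0111). SLC25A39, which imports glutathione, measured 12.20 and 12.37 against 12.53 and 12.66 and rose by 0.31 (SE 0.08, adjusted p = 0.0478). This was the smallest rise that passed, and it missed the threshold under quantile normalization (0.22, adjusted p = 0.0798), without the filter on low genes (adjusted p = 0.211) and without the variance trend (adjusted p = 0.158). SLC25A40, its close relative with the same substrate, lay at -0.08 (adjusted p = 0.477). Relative to SLC25A40, the log2 ratio of SLC25A39 was 2.84 and 2.94 against 3.17 and 3.40, a difference of 0.40 (SE 0.13). SLC25A29, a carrier of basic amino acids, lay at 0.29 (SE 0.10, adjusted p = 0.0919) without overlap, and SLC25A38, a glycine carrier needed for heme synthesis, at -0.06 (SE 0.05, adjusted p = 0.465). SLC25A2, an ornithine carrier, had 2 reads in control replicate 1 and was listed at 0 in the other libraries. SLC25A20, the acylcarnitine carrier of fatty acid oxidation, measured 10.09 and 10.12 against 9.94 and 9.97, with a difference of -0.15 (SE 0.06, adjusted p = 0.117).

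The nucleotide, cofactor and vitamin carriers moved in both directions. SLC25A16, linked to coenzyme A supply of the matrix, measured 7.52 and 7.42 against 7.94 and 8.30 and rose by 0.65 (SE 0.16, adjusted p = 0.0397), the second largest rise, although its 2 libraries labelled GNA13-deficient also differed most among the genes that rose. SLC25A42, a coenzyme A carrier, lay at 0.04 (adjusted p = 0.842). The log2 ratio of SLC25A16 to SLC25A42 was -0.99 and -0.94 against -0.48 and -0.22, a difference of 0.61 (SE 0.13). SLC25A32, which is linked to import of folate and flavin cofactors, measured 10.64 and 10.51 against 10.17 and 10.23 and fell, with a difference of -0.37 (SE 0.07, adjusted p = 0.0186). All libraries labelled GNA13-deficient were below all controls in SLC25A32. This gene overlaps exons of an annotated gene without a symbol on the same strand and DCAF13 exons on the opposite strand. Its fall missed the threshold under median centring (-0.17, adjusted p = 0.137), without the filter (adjusted p = 0.0959) and without the variance trend (adjusted p = 0.0878).

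SLC25A26, the S-adenosylmethionine carrier, measured 8.46 and 8.66 against 8.18 and 8.21, with a difference of -0.36 (SE 0.11, adjusted p = 0.0676). SLC25A33, a pyrimidine nucleotide carrier, measured 10.13 and 10.29 against 9.92 and 10.03, with a difference of -0.23 (SE 0.08, adjusted p = 0.0989). Both lay below the controls without overlap, as did 34.0% of all genes, and missed the threshold. SLC25A26 passed in limma with a filter at the median (adjusted p = 0.0266) and with voom weights (adjusted p = 0.0478). It missed under quantile normalization (-0.19, adjusted p = 0.302) and median centring (-0.15, adjusted p = 0.382). SLC25A36, the other pyrimidine nucleotide carrier, lay at 0.01 (SE 0.05, adjusted p = 0.921), and SLC25A17, which carries cofactors across the peroxisomal rather than the mitochondrial membrane, at 0.13 (SE 0.08, adjusted p = 0.273).

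The 2 mitoferrins bring iron into the matrix for heme and iron-sulfur cluster synthesis. SLC25A28 (mitoferrin 2), the form with wide expression, measured 9.36 and 9.29 against 9.85 and 9.82 and rose by 0.51 (SE 0.07, adjusted p = 0.00701). SLC25A37 (mitoferrin 1), best known from erythroid cells, measured 8.12 and 7.89 against 8.12 and 8.02, with overlapping groups and a difference of 0.07 (SE 0.13, adjusted p = 0.736). The log2 ratio of SLC25A28 to SLC25A37 was 1.24 and 1.40 against 1.73 and 1.79, a difference of 0.45 (SE 0.09), so the ratio was higher in both libraries labelled GNA13-deficient.

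Of the 3 uncoupling-protein-like carriers, 1 rose and 1 fell, beside 13.1% and 16.6% of all genes. For well-expressed genes these shares were 21.3% and 17.7%. SLC25A14 (UCP5) measured 8.57 and 8.64 against 9.17 and 9.13 and rose by 0.55 (SE 0.08, adjusted p = 0.00927). SLC25A30 (KMCP1), its closest relative, measured 9.58 and 9.58 against 9.15 and 9.12 and fell, with a difference of -0.44 (SE 0.07, adjusted p = 0.01). The replicates of each group were close together in both genes. Their log2 ratio was -1.01 and -0.94 against 0.02 and 0.01, a difference of 0.99 (SE 0.04), the largest among the 9 ratios computed. The 9 ratios were chosen with the members' values known, and their directions are a description only. Not all were higher: SLC25A6 to SLC25A5 differed by -0.14 (SE 0.03) and SLC25A33 to SLC25A36 by -0.24 (SE 0.12). The ratio of SLC25A4 to SLC25A5 differed by 0.28 (SE 0.10). Under median centring the difference of SLC25A30 was -0.23 with an adjusted p of 0.0539. SLC25A30 overlaps exons of SLC25A30-AS1 and TPT1-AS1 on the opposite strand. SLC25A27 (UCP4) rested on 12 to 18 reads and lay at -0.07 (SE 0.38, adjusted p = 0.919).

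Carriers with no settled substrate included the largest difference of the family. SLC25A45 (chr11:65142663-65151172, minus strand, 7 exons in its canonical transcript) measured 7.92 and 7.72 against 6.89 and 6.81 and fell, with a difference of -0.97 (SE 0.15, adjusted p = 0.00993), which left 0.51 times the control level. It rested on 104 to 238 reads per library, the lowest mean level among the members past the threshold, and without a filter on low genes its adjusted p was 0.0509. SLC25A43 measured 9.20 and 9.23 against 8.89 and 8.88 and fell, with a difference of -0.33 (SE 0.07, adjusted p = 0.0298). It missed the threshold under quantile normalization, at an adjusted p of 0.1, under median centring, at 0.299, and without the variance trend, at 0.0755. SLC25A35 lay at 0.28 (SE 0.15, adjusted p = 0.235) and SLC25A34, on 5 to 10 reads, at -0.43 (SE 0.43, adjusted p = 0.504). SLC25A46, which acts in mitochondrial dynamics at the outer membrane, lay at 0.05 (SE 0.05, adjusted p = 0.51).

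SLC25A3, SLC25A4, SLC25A5 and SLC25A6 held 55.42% and 58.27% of the members' reads in control libraries and 59.79% and 61.6% in the others. SLC25A4 added little to this, with 1619 and 1758 reads against 2537 and 2642. UCP2, a family gene under another symbol, had 11617 and 13405 reads against 8497 and 8179 and is not in these sums. The 40 members summed to 0.292% and 0.307% of mapped reads in control libraries and to 0.329% and 0.35% in the others, or means of 0.30% and 0.34%. SLC25A3, SLC25A4, SLC25A5 and SLC25A6, of which only SLC25A4 passed the test, held 0.162% and 0.179% against 0.197% and 0.216% of mapped reads. The other 36 members together held 0.13% and 0.128% against 0.132% and 0.134%, so nearly all of the difference in the sum lay in those 4 genes. Per kb of canonical transcript, the mean levels over the 4 libraries were 16943 normalised reads for SLC25A5, 8826 for SLC25A6, 3536 for SLC25A3, 3535 for SLC25A39, 1599 for SLC25A11 and 874 for SLC25A1. SLC25A3 and SLC25A39 were not separable in this order. SLC25A4 stood 16th with 499.6 and SLC25A45 34th with 75.7, while SLC25A34 was lowest at 2.53. These levels use 1 transcript per gene and would move with another choice of isoform. Of the 40 members, 12 have at least 1 annotated pseudogene, 5 share exons with another annotated gene on the same strand and 18 with one on the opposite strand.

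**Figure D3:**
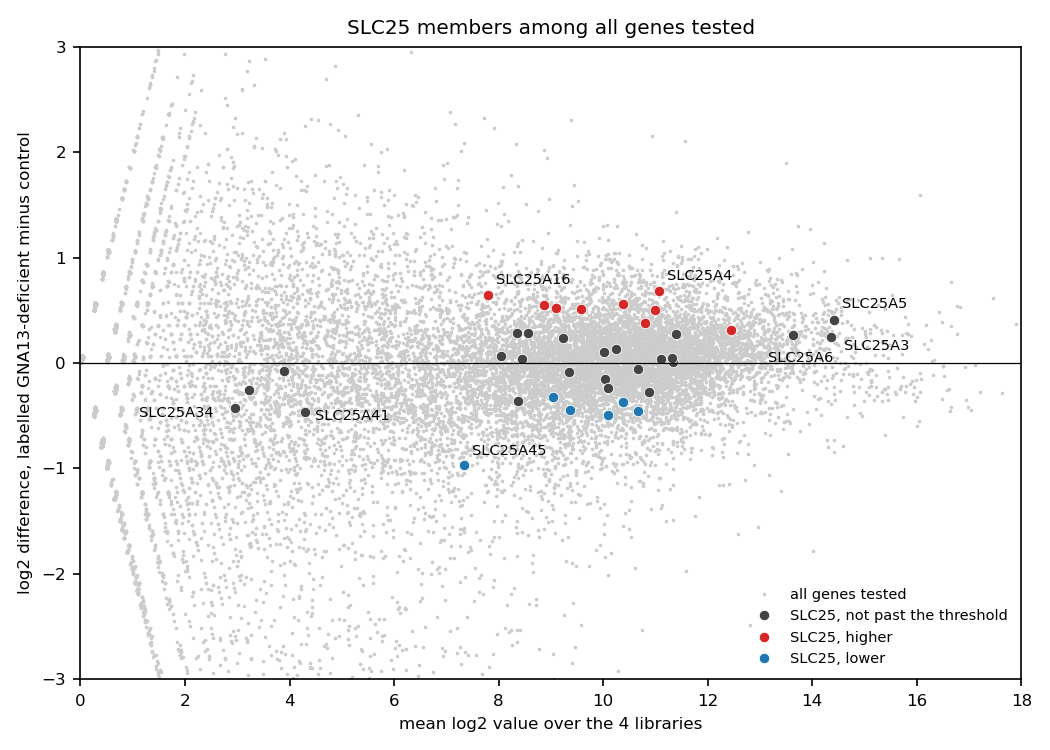
Log2 difference between libraries labelled GNA13-deficient and control (y axis) against the mean log2 value over the 4 libraries (x axis) for the 16945 genes tested (grey) and 39 members (red higher, blue lower, dark not past the threshold); 457 genes lie outside the plotted range of -3 to 3. The members lie well inside the spread of all genes, from -0.97 to 0.69.

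Genes around the carriers gave a list of 36 measured genes. They cover import, other inner membrane transport, enzymes that use the carried metabolites, and family members with other symbols. Of the 36, 9 rose (25%, beside 13.1% of all genes) and 4 fell (11.1%, beside 16.6%), with a median difference of -0.04. Most of the list is well expressed, and among the 8473 genes with a mean at or above the median, 21.3% rose and 17.7% fell. Under median centring 13 rose and 2 fell, and under quantile normalization 7 rose and 6 fell. When any 1 library was left out, none of the 36 passed by limma, as for all genes. The largest rises were SFXN5, a sideroflexin, with 8.55 and 8.46 against 9.41 and 9.41 and a difference of 0.91 (SE 0.08, adjusted p = 0.00268), BRP44 (now MPC2), a subunit of the mitochondrial pyruvate carrier, with 10.81 and 10.99 against 11.37 and 11.54 and 0.55 (SE 0.09, adjusted p = 0.0141), and TIMM10, a small TIM chaperone for carriers, with 10.84 and 10.96 against 11.37 and 11.48 and 0.53 (SE 0.07, adjusted p = 0.00799). BRP44L (now MPC1), the partner subunit of the pyruvate carrier, lay at 0.09 (SE 0.10, adjusted p = 0.532). Among falls, FXC1 (now TIMM10B), a small TIM of the TIM22 complex, measured 10.69 and 10.80 against 10.22 and 10.16, with a difference of -0.55 (SE 0.07, adjusted p = 0.00551). MTCH1, an outer membrane relative of the SLC25 proteins, measured 9.91 and 9.95 against 9.44 and 9.33, with a difference of -0.55 (SE 0.07, adjusted p = 0.00695). UCP2, which belongs to the family under another symbol (SLC25A8), measured 13.53 and 13.69 against 13.09 and 13.10, with a difference of -0.51 (SE 0.07, adjusted p = 0.00885).

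The counts by role that follow stand beside 13.1% of all genes that rose and 16.6% that fell. For well-expressed genes these shares were 21.3% and 17.7%. Of 10 import genes 1 rose and 1 fell, and of 9 other inner membrane transporters 3 rose and 1 fell. Of the 4 family members with other symbols, 0 rose and 2 fell, and all 4 differences were below 0. Of the 4 malate-aspartate shuttle enzymes, 3 rose: GOT1, the cytosolic aspartate aminotransferase, by 0.44 (SE 0.07, adjusted p = 0.01), GOT2, its mitochondrial counterpart, by 0.46 (SE 0.07, adjusted p = 0.00811), and MDH1, the cytosolic malate dehydrogenase, by 0.39 (SE 0.10, adjusted p = 0.037). The mitochondrial MDH2 lay at -0.12 (SE 0.08, adjusted p = 0.29). The shuttle's carriers SLC25A11, SLC25A12 and SLC25A13, lay at 0.28, 0.10 and -0.28 and none of the 3 passed; carriers and enzymes were not tested against each other. Beside the citrate carrier SLC25A1, both cytosolic enzymes that act on citrate rose, ACLY, which splits it to acetyl-CoA, by 0.31 (SE 0.06, adjusted p = 0.0251) and ACO1, the cytosolic aconitase, by 0.48 (SE 0.06, adjusted p = 0.00552). Beside the glutamate carriers, GLUD1, glutamate dehydrogenase, lay at 0.01 (SE 0.06, adjusted p = 0.959). Beside the acylcarnitine carrier SLC25A20, CPT1A lay at -0.21 (SE 0.07, adjusted p = 0.0789) and CPT2 at -0.09 (SE 0.05, adjusted p = 0.304). GPD1, of the glycerol phosphate shuttle, had the largest difference of the list, -1.75 (SE 0.56, adjusted p = 0.0757), at log2 levels of 4.55 and 5.11 against 3.74 and 2.43, and did not pass the test.

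**Figure D4:**
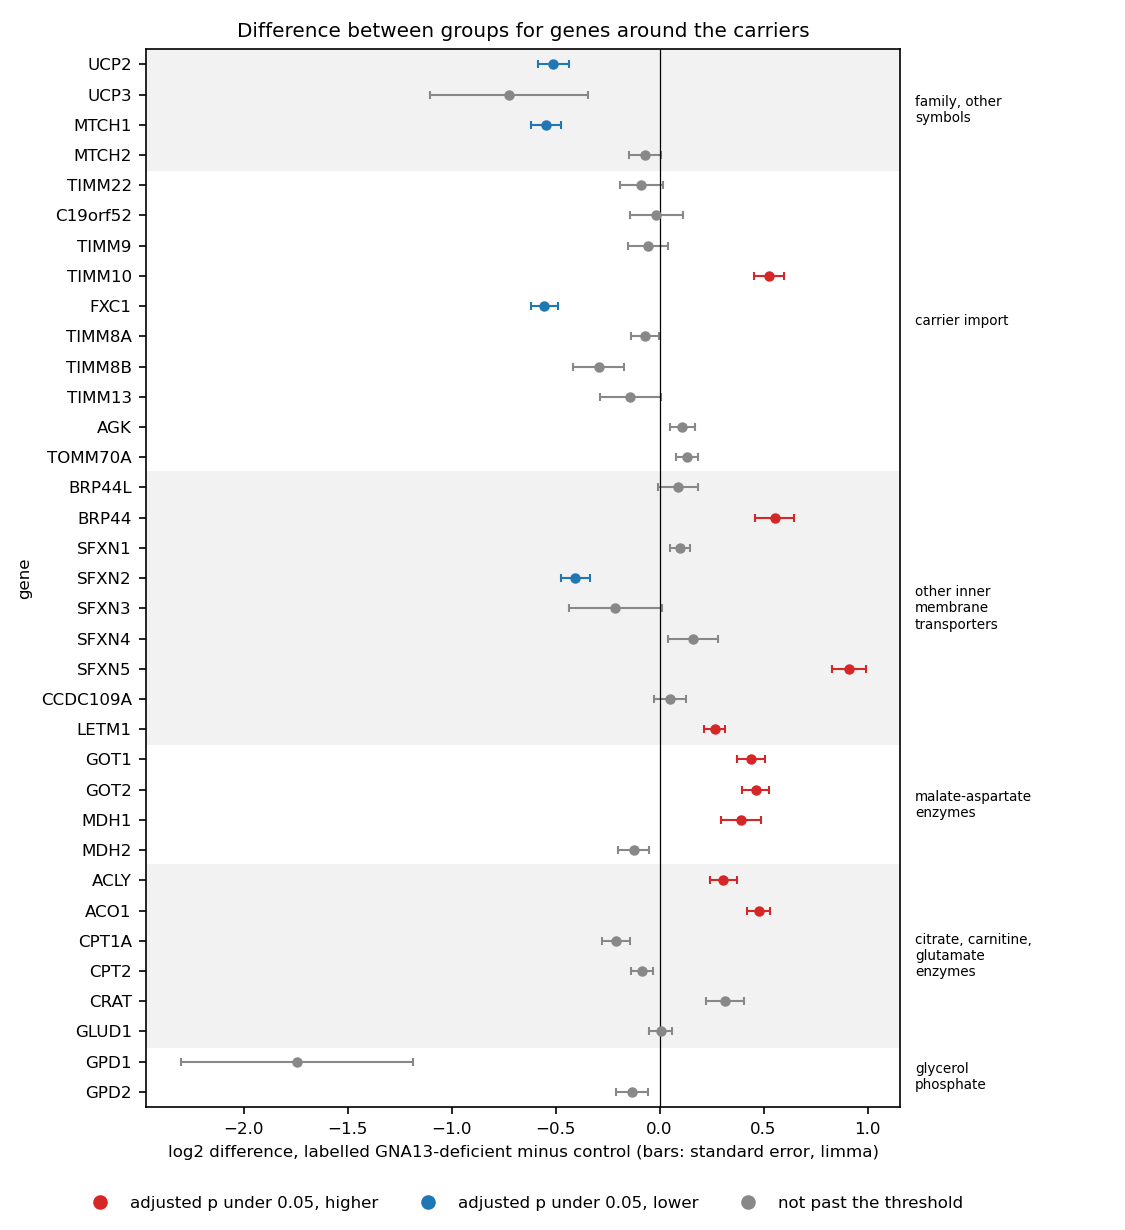
Log2 difference between libraries labelled GNA13-deficient and control (x axis; bars are limma standard errors) for 35 genes around the carriers (y axis, symbols as in the data), red for the 9 that rose and blue for the 4 that fell. GOT1, GOT2 and MDH1 lie to the right of 0 between 0.39 and 0.46, and the scattered GPD1 and UCP3 are not past the threshold.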

How the data were processed

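RNA was extracted from NUDUL1 cells and sequenced as poly(A)-selected stranded libraries. Alignment by the authors was to hg19 with STAR, and the submitters' processing notes name HTSeq; the normalization, annotation and strand setting are not given in the sources used here. The deposited table holds log2 normalised reads per gene, and its row of total mapped reads was used only for depth. Values at or below 400 reads stepped in whole reads (tolerance 0.02), which gave the reads behind each value; all 4 columns were used.

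Deposited log2 values were fitted without a pseudocount with limma 3.58.1 in R 4.3.3 (lmFit, eBayes with a mean-variance trend; genotype only, 2 residual degrees of freedom), on genes above 0 in at least 2 libraries, with Benjamini-Hochberg adjustment over 16945 genes and a threshold of 0.05. Errors are limma standard errors or, for ratios, standard errors of the difference between the 2 group means. Shares carry no standard error. The script was tested on simulated data. Positions come from GENCODE v44 lifted to GRCh37, and sequences were matched with Python 3.11.15, numpy 2.4.6 and pandas 2.3.3.

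Members, solute groups, the list of genes around the carriers, marker lists and the rule for naming genes (all members past the threshold, the ADP/ATP, phosphate, carboxylate and glutamate carriers, and the 3 largest changes per direction of the list) were chosen with earlier results of these data known. Other members are named by value only. Values of 1 member and of 1 gene around the carriers are counted in the totals but not reported here. Alternatives were other filters, pseudocounts, quantile normalization, median centring, no variance trend, a robust prior, voom weights on recovered reads, a replicate block and leaving out each library.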

Additional observations from a re-analysis of the deposited data

How the results depend on the processing

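The 10 members that rose and 6 that fell became 4 and 3 without a filter on low genes, 4 and 3 without the variance trend, and 18 and 3 under median centring. For the genes around the carriers, the 9 that rose and 4 that fell became 3 and 2 without the filter 2 and 2 without the trend, 13 and 2 under median centring, and 7 and 6 under quantile normalization. With any 1 library left out, 0 to 0 members or listed genes were called in either direction; the lone sample is then assumed to vary like the other group. The members' median of 0.06 became 0.13 with a filter at the median, 0.13 under quantile normalization and 0.27 under median centring, and ran from 0.054 to 0.136 when a library was left out (0.12 without control replicate 1 and 0.14 without replicate 1 of those labelled GNA13-deficient). Signs turned, in genes that did not pass, under quantile normalization for SLC25A18 (0.17), SLC25A40 (0.001), SLC25A36 (-0.012), SLC25A27 (0.36) and SLC25A34 (0.016), and under centring for SLC25A38 (0.15), SLC25A40 (0.13), SLC25A20 (0.056) and SLC25A27 (0.14). Leaving out a library moved SLC25A18 between -0.73 and 0.21, SLC25A23 between -0.03 and 0.11, SLC25A27 between -0.33 and 0.19, SLC25A36 between -0.023 and 0.042, SLC25A37 between -0.047 and 0.182 and SLC25A42 between -0.041 and 0.112. The causes were not tested. No source pairs the replicate numbers; with a replicate block, 15 members rose, SLC25A3, SLC25A5 and SLC25A6 among them, and 9 fell and 6616 genes were called rather than 5037, and deviations of same-numbered libraries correlated at 0.453 over 8473 genes. Over all genes, 1999 were called without the filter and 2718 without the trend. Pseudocounts of 1 and 10, the robust prior and voom weights kept every member's direction. Few reads limit SLC25A18, SLC25A27, SLC25A34 and SLC25A41, whose standard errors were 0.38 to 0.52.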

Other observations

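SLC25 genes that carry older symbols in the data were not members by the rule and were looked up after the values of the family had been seen. MCART1 (now SLC25A51), which supplies the matrix with NAD, measured 8.73 and 8.72 against 8.73 and 8.64, with a difference of -0.04 (SE 0.09, adjusted p = 0.796). MCART6 (now SLC25A53) measured 8.39 and 8.27 against 8.21 and 7.94, with a difference of -0.26 (SE 0.14, adjusted p = 0.225), and MCART2 (now SLC25A52) rested on 3 to 10 reads and lay at 0.81 (SE 0.56, adjusted p = 0.343). None of these 3 passed limma's threshold.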
